A study of Mus musculus with 6 samples.

Results

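The actin cytoskeleton genes described here are 38 genes of contractile, leukocyte and general actin isoforms and regulators, chosen by symbol and measured as RNA in 6 libraries of MC/9 cells. All 38 were in the count table of 49568 genes, and all 38 passed the filter on low counts, as did 16696 genes in all. By role they fell into 9 isoforms of contractile and stromal cells, 5 regulators of blood cells, and 24 general members. MC/9 is a mouse mast cell line, and 7F2 is a mouse osteoblast line, osteoblasts being the bone-forming cells of the stroma. Per the series' design text, mast cells were placed on osteoblasts seeded the day before, the co-culture received rPTH (10 nM, 24 h), and mast cells were taken off it for sequencing. The groups were 3 libraries of MC/9 cells labelled as treated with rPTH and 3 labelled as untreated controls. No genetic change, strain or age separates them. The labels do not spell out rPTH, which is read here as a preparation of parathyroid hormone, and they leave unsaid if control cells were likewise kept on osteoblasts. The treatment field of the control samples also names rPTH, while their own characteristic marks them as untreated, which is the label followed here. Nothing says that the libraries of a group came from separate cultures, so a p-value here speaks to the spread of these samples alone, part of which may be technical.

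Actin filaments grow where nucleators such as the Arp2/3 complex start new branches, and they are cut and recycled by cofilins and fed with monomers by profilins. In stromal and smooth muscle cells, tropomyosins, calponins, caldesmon and non-muscle or smooth-muscle myosins are laid along the filaments to form contractile stress fibres, and α-smooth muscle actin (Acta2) is the usual mark of that state. Blood cells have few stress fibres and instead use regulators of a thin, fast-moving cortex, among them coronin 1A, L-plastin and the Wiskott-Aldrich protein. Genes of contractile fibres are commonly driven by serum response factor, which binds the CArG box, a pair of C and a pair of G around an A/T-rich core.

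The windows upstream of 4 members are shown because they hold CArG box letters, Acta2 and Myl9 among the contractile isoforms and Actg1 and Cnn2 among the general members. Windows from RefSeq (GRCm38.p6), running from 250 bases before to 50 after the annotated start, were found for 35 of the 38 members and searched on both strands. The exceptions were Actb, Tagln and Lsp1. A CArG box was present in 3 of the 35, namely Myl9, Actg1 and Cnn2, and in 1.63% of all 32851 windows of the same 300 bases. Allowing up to 1 mismatch in the core, which includes the exact boxes, gave 6 of 35 (Acta2, Myl9, Actg1, Cnn2, Tpm3 and Myl12a) and 9.98% of all windows. None of the 4 blood-cell regulators with a window held such letters, which says only that they are not in these windows. Each sequence below is 150 bases of the gene's own strand, 5′ to 3′, from 170 to 21 bases before the start, with exact and 1-mismatch boxes in capitals. They lie at chr19:34255394-34255543 on the minus strand (Acta2), chr2:156775294-156775443 on the plus strand (Myl9), chr11:120348516-120348665 on the minus strand (Actg1) and chr10:79988430-79988579 on the plus strand (Cnn2).
Acta2: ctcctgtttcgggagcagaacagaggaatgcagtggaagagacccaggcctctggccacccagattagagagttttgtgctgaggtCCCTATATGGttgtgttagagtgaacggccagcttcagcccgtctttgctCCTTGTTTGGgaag
Myl9: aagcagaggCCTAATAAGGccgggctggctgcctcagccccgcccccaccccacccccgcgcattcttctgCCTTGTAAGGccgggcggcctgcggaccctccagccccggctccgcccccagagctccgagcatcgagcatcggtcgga
Actg1: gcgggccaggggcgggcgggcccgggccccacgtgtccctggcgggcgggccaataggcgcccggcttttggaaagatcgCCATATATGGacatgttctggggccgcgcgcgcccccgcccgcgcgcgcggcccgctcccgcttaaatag
Cnn2: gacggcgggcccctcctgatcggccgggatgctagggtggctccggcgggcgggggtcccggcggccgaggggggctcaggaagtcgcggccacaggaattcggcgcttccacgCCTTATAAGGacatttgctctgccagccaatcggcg
The Acta2 boxes, both with 1 mismatch, begin 84 and 34 bases before its start. The Myl9 boxes begin 161 bases (exact) and 99 bases (1 mismatch) before its start. The exact boxes of Actg1 and Cnn2 begin 90 and 56 bases before theirs. The 4 genes were carried by every library, and among them Myl9 was the lowest and Actg1 the highest in level. A match of letters is a description, not a binding site.

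Total counts were 30623648 to 33577977 in the rPTH libraries and 22282095 to 24993606 in the controls. Levels are CPM, counts scaled to library size with TMM factors, and per kb they are divided by the length of the gene's merged exons in GENCODE M21. Mast cell marker genes summed to 8129, 10472 and 9923 CPM in rPTH libraries 1, 2 and 3, against 13014, 10327 and 10240 CPM in control libraries 1, 2 and 3, and the lymphoid markers summed to under 1 CPM in every library. Control 1 stood apart: its TMM factor was 0.81, against 1.03 to 1.06 in the other 5 libraries, processed pseudogenes took 12.3% of its counts, and short transcripts were high in it. The library rPTH 1 stood apart in the osteoblast and stromal markers, with 3878 CPM. Values without these libraries stand beside the results that rest on them.

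No actin gene passed the test of rPTH against control. With edgeR's quasi-likelihood test and Benjamini-Hochberg adjustment over all 16696 genes, 0 of 38 members and 0 genes in all (0%) reached an adjusted p under 0.05; the lowest was 0.619. DESeq2 called 5 genes (0.0299%) and limma-voom 0, none of them members. The authors' deposited table called 11 genes (0.0707%), again no member. At an unadjusted p under 0.05, edgeR gave 2 members, the caldesmon gene Cald1 and the α-actinin gene Actn1, both higher in rPTH libraries, beside 1314 genes in all (7.87%, of which 1.98% higher and 5.89% lower). In 6 members every rPTH library lay above every control, beside 8.35% of all genes. These were Cald1, Myh10, Actn1, Flna, Cfl2 and Msn. Myl12b was the 1 member with every rPTH library below every control, beside 8.46% of all genes, and in either direction the share over all genes was 16.8%. The median log2 fold change, rPTH minus control, was 0.03 for the contractile isoforms, -0.20 for the blood-cell regulators and -0.22 for the general members, beside -0.09 for all genes. Of these, 5 of 9, 1 of 5 and 8 of 24 were above 0, beside 41.5% of all genes. Scaling by library totals in place of TMM moved the median of all genes to 0.04, so changes are read relative to that shift. With that scaling Actg1 (0.038), Tpm1 (0.066), Myl9 (0.11) and Lcp1 (0.019) were above 0, whereas with TMM they were below it.

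**Figure D1:**
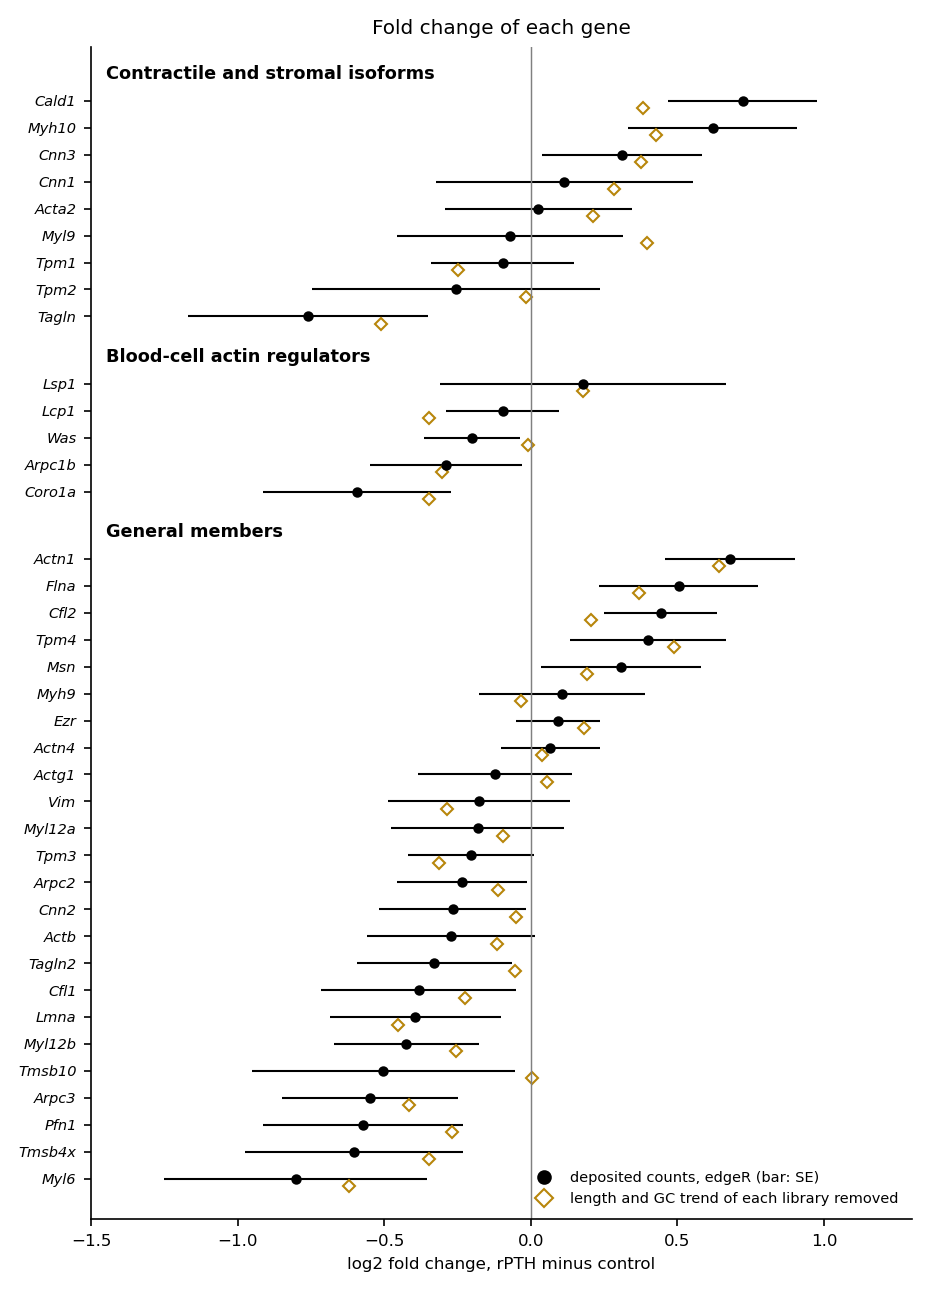
Fold change of each of the 38 genes by role, as the log2 fold change of rPTH minus control on the horizontal axis. Filled circles with bars are the edgeR estimate and its standard error (n = 3 each), and open diamonds are the estimate after the length and GC trend of each library was removed; Cald1 and Actn1 lie farthest to the right at 0.72 and 0.68.

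Among the contractile isoforms, the genes of caldesmon and non-muscle myosin IIB had the highest log2 fold changes. The classical smooth muscle genes Acta2, Cnn1, Myl9 and Tagln had log2 fold changes between -0.76 and 0.11. Caldesmon (Cald1) binds filaments and holds back myosin. Cald1 had 259, 176 and 157 CPM in rPTH 1, 2 and 3, against 93.8, 125 and 139 CPM in control 1, 2 and 3. The groups did not overlap, and rPTH 1 was the highest and control 1 the lowest library. Its log2 fold change was 0.72 ± 0.25 (SE, n = 3 each, edgeR adjusted p = 0.619), 0.48 without rPTH 1 and 0.38 after removal of the length and GC trend. The authors' deposited table lists 0.70 with an adjusted p of 0.201. Myh10 encodes the heavy chain of non-muscle myosin IIB, a motor that holds tension in stress fibres. Myh10 had 98.3, 58.6 and 63.4 CPM in rPTH 1, 2 and 3, against 33.2, 53.7 and 56.4 CPM in control 1, 2 and 3. Groups did not overlap here either, with rPTH 2 and control 3 the nearest libraries. The fold change was 0.62 ± 0.29 on the log2 scale, 0.35 without rPTH 1 and 0.40 without control 1. Calponin 3 (Cnn3), the calponin of non-muscle and stromal cells, had 67.2, 45.4 and 41.2 CPM in rPTH libraries, against 54.6, 34.4 and 34.9 CPM in controls. Control 1 lay inside the rPTH range and the other controls lay below it, and the log2 fold change was 0.31 ± 0.27, or 0.07 without rPTH 1.

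Acta2, the α-smooth muscle actin gene, was present in every library at a low level for an actin. Acta2 had 83.1, 58.0 and 55.8 CPM in rPTH 1, 2 and 3, against 96.1, 48.8 and 48.6 CPM in control 1, 2 and 3. Control 1 was the highest of all 6 libraries and controls 2 and 3 the lowest, so the groups overlapped. The log2 fold change was 0.03 ± 0.32 (95% interval -0.73 to 0.78), and it was 0.42 without control 1 and -0.18 without rPTH 1. Myl9, the regulatory light chain of smooth muscle myosin, followed the same order, with 12.6, 9.31 and 7.96 CPM in rPTH libraries, against 16.8, 7.09 and 7.53 CPM in controls. Its log2 fold change was -0.07 ± 0.39, and 0.40 after removal of the length and GC trend. Tropomyosin 1 (Tpm1), which stabilises filaments in muscle and stress fibres, had 269, 236 and 222 CPM in rPTH libraries, against 350, 221 and 207 CPM in controls. Tropomyosin 2 (Tpm2) had 41.5, 30.1 and 26.6 CPM in rPTH libraries, against 72.5, 24.6 and 20.3 CPM in controls. For both, control 1 was the highest library and controls 2 and 3 the lowest, and the log2 fold changes were -0.10 ± 0.24 and -0.26 ± 0.49. Tpm2 stood at 0.53 without control 1 and at -0.017 after removal of the length and GC trend. Its sign also turned when a block for the replicate number was added to that removal.

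Calponin 1 and transgelin, which are markers of differentiated smooth muscle, were barely present. Cnn1 had 2.35, 1.91 and 1.51 CPM in rPTH libraries, against 2.89, 1.43 and 1.04 CPM in controls, from 24 to 74 counts a library. Transgelin (Tagln) had 0.571, 0.464 and 0.617 CPM in rPTH libraries, against 1.37, 0.852 and 0.606 CPM in controls, from 14 to 27 counts a library. Controls 1 and 2 were above every rPTH library and control 3 lay between them, and the log2 fold change was -0.76 ± 0.41 (edgeR adjusted p = 0.628). The antisense gene Gm48529 shares 1241 exon bases with Tagln in GENCODE M21, and no source used here gives the strand setting of the counting, so reads of the pair cannot be told apart. Without control 1, the other 8 contractile members, all but Tagln, had every rPTH library above the 2 remaining controls, beside 15.9% of all genes in that fit, and their role's median was 0.43. The sign of that median turned with the library left out: it was -0.18 without rPTH 1, -0.15 without control 2 and -0.04 without control 3, and 0.24 without both rPTH 1 and control 1.

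**Figure D2:**
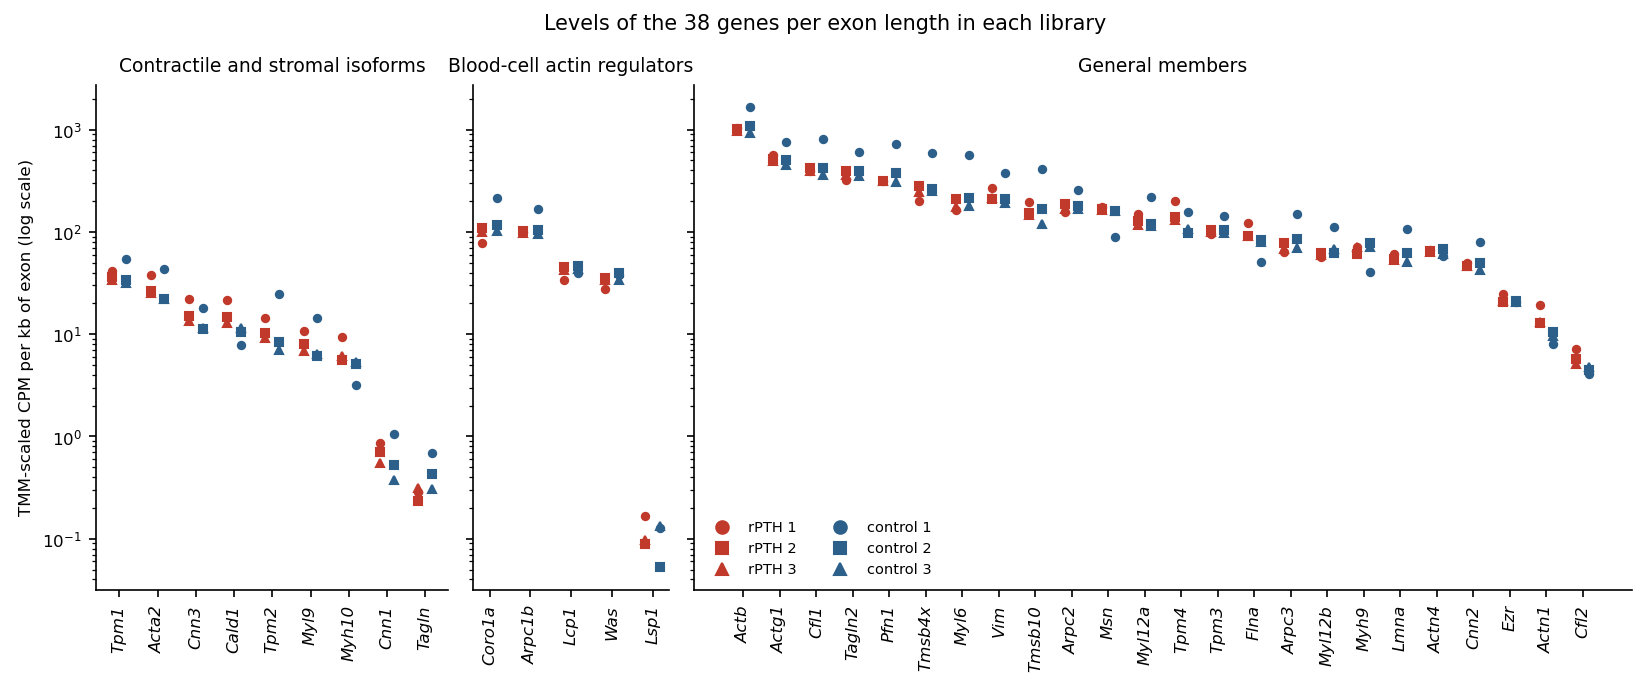
Level of each of the 38 genes in each library, in CPM per kb of exon on a log axis, by role. Red points are rPTH libraries and blue points controls; Actb, Actg1 and Cfl1 lie at the top and Lsp1, Tagln and Cnn1 at the bottom.

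Of the 5 blood-cell regulators, Arpc1b, Coro1a and Lcp1 had higher mean levels per kb in both groups than any contractile isoform, Lsp1 was nearly absent, and none passed the test between the groups. L-plastin (Lcp1), which bundles filaments in leukocytes, had 322, 428 and 402 CPM in rPTH libraries, against 375, 444 and 413 CPM in controls. Lcp1 was lowest in rPTH 1, the groups overlapped, and the log2 fold change was -0.10 ± 0.19. Coronin 1A (Coro1a), a leukocyte protein that binds filaments and the Arp2/3 complex, had 215, 306 and 275 CPM in rPTH libraries, against 595, 323 and 283 CPM in controls. Control 1 was far above the other 5 libraries, and rPTH 1 was the lowest. The log2 fold change was -0.59 ± 0.32 (edgeR adjusted p = 0.628), -0.20 without control 1, and between -0.73 and -0.07 over all settings tried. Arpc1b, the Arp2/3 subunit that predominates in blood cells, had 512, 521 and 500 CPM in rPTH libraries, against 857, 532 and 483 CPM in controls. Again control 1 alone was high, and the log2 fold change was -0.29 ± 0.26, or -0.0008 without control 1. The Wiskott-Aldrich gene Was, whose product activates the Arp2/3 complex in blood cells, had 66.1, 84.2 and 80.9 CPM in rPTH libraries, against 90.5, 94.9 and 80.4 CPM in controls. Its groups overlapped through rPTH 2, rPTH 3 and control 3, and the log2 fold change was -0.20 ± 0.16. Lsp1, a filament-binding protein first known from lymphocytes, had 0.857, 0.464 and 0.505 CPM in rPTH libraries, against 0.659, 0.271 and 0.692 CPM in controls, from 7 to 27 counts a library. At these counts a difference between the groups was not detectable, and the 95% interval of the log2 fold change ran from -0.97 to 1.33. Arpc1b shares 931 exon bases with the opposite-strand gene Pdap1.

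Of the general members, Actn1, Flna, Cfl2 and Tpm4 had the highest log2 fold changes and Myl6, Tmsb4x and Pfn1 the lowest, none past the adjusted test. α-Actinin 1 (Actn1) cross-links filaments in stress fibres and at focal adhesions. Actn1 had 107, 70.7 and 72.3 CPM in rPTH 1, 2 and 3, against 43.9, 58.7 and 53.7 CPM in control 1, 2 and 3. No control reached any rPTH library, and control 1 was the lowest. The log2 fold change was 0.68 ± 0.22 (SE, n = 3 each, edgeR adjusted p = 0.619), 0.64 after removal of the length and GC trend, and 0.46 without rPTH 1. It was 0.67 with an adjusted p of 0.192 in the authors' deposited table. Filamin A (Flna), a long cross-linker that ties filaments to the membrane, had 1158, 849 and 852 CPM in rPTH libraries, against 478, 793 and 745 CPM in controls. The nearest libraries of the groups were rPTH 2 and control 2, the fold change was 0.50 ± 0.27 on the log2 scale, and it was 0.34 without rPTH 1 and 0.30 without control 1. Cofilin 2 (Cfl2), the muscle-type cofilin, had 23.7, 18.7 and 16.6 CPM in rPTH libraries, against 13.3, 14.6 and 15.4 CPM in controls, a log2 fold change of 0.44 ± 0.19. Moesin (Msn), which links filaments to the plasma membrane, had 1117, 1065 and 1045 CPM in rPTH libraries, against 568, 1023 and 1015 CPM in controls. Here controls 2 and 3 lay just under the rPTH libraries and control 1 alone was far below, and the log2 fold change was 0.31 ± 0.27, or 0.07 without control 1. Tropomyosin 4 (Tpm4) had 445, 308 and 290 CPM in rPTH libraries, against 342, 215 and 234 CPM in controls. Control 1 overlapped the rPTH libraries, and the log2 fold change was 0.40 ± 0.27, or 0.18 without rPTH 1 and 0.62 without control 1.

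The cytoplasmic actins were the highest members. β-Actin (Actb) averaged 1010 CPM per kb in rPTH libraries and 1219 CPM per kb in controls. The γ-actin gene (Actg1) averaged 527 CPM per kb in rPTH libraries and 573 CPM per kb in controls, and cofilin 1 (Cfl1) averaged 405 CPM per kb in rPTH libraries and 528 CPM per kb in controls. Actb had 2779, 2749 and 2586 CPM in rPTH libraries, against 4414, 2896 and 2486 CPM in controls. Actg1 had 1508, 1372 and 1322 CPM in rPTH libraries, against 2017, 1355 and 1199 CPM in controls. Cfl1, which severs filaments, had 1127, 1209 and 1121 CPM in rPTH libraries, against 2280, 1199 and 1028 CPM in controls. In all 3 genes control 1 was the highest library and control 3 the lowest. The log2 fold changes were -0.27 ± 0.29 for Actb, -0.12 ± 0.26 for Actg1 and -0.38 ± 0.33 for Cfl1, and without control 1 they were -0.0034 for Actb, 0.12 for Actg1 and 0.0385 for Cfl1. Actg1 counts are uncertain, since 4 processed pseudogenes match it, and the nearest, Gm12715, is 99.6% identical over 1128 bases and had counts equal to 45.7% of those of Actg1.

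The non-muscle partners of the contractile genes were mostly highest in control 1. Myl6, the essential light chain of non-muscle and smooth muscle myosin, had 523, 666 and 564 CPM in rPTH libraries, against 1798, 683 and 575 CPM in controls. Control 1 exceeded every other library, and the log2 fold change of -0.80 ± 0.45 was the lowest among the 38 members, but it was -0.12 without control 1. Its 5 processed pseudogenes with near-identical sequence were led by Gm5526, at 30.2% of its counts. Myl12b, a regulatory light chain of non-muscle myosin, had 159, 173 and 166 CPM in rPTH libraries, against 307, 173 and 188 CPM in controls, and rPTH 2 and control 2 were nearly equal. Its log2 fold change was -0.42 ± 0.25, or -0.13 without control 1. Its neighbour Myl12a, 96.9% identical over 648 bases, had 502, 434 and 397 CPM in rPTH libraries, against 730, 400 and 381 CPM in controls, so counts of the pair may be split. Myh9, the heavy chain of non-muscle myosin IIA, went the other way in control 1, with 921, 785 and 917 CPM in rPTH libraries, against 524, 997 and 915 CPM in controls. Transgelin 2 (Tagln2), the transgelin of blood cells, had 672, 822 and 753 CPM in rPTH libraries, against 1264, 826 and 732 CPM in controls. Calponin 2 (Cnn2) had 122, 115 and 114 CPM in rPTH libraries, against 197, 122 and 105 CPM in controls. Tropomyosin 3 (Tpm3) had 585, 629 and 610 CPM in rPTH libraries, against 867, 637 and 598 CPM in controls, and Tpm3-rs7, a copy 99.1% identical over 2108 bases, had counts equal to 39.2% of its own. In these 3 genes the groups overlapped, control 1 was the highest library and control 3 the lowest or next to lowest. The other 9 general members (Actn4, Vim, Lmna, Pfn1, Arpc2, Arpc3, Tmsb4x, Tmsb10 and Ezr) had log2 fold changes between -0.60 and 0.09, all with groups that overlapped. Tmsb4x had 275, 383 and 337 CPM in rPTH libraries, against 812, 359 and 342 CPM in controls. Pfn1 had 749, 758 and 764 CPM in rPTH libraries, against 1737, 907 and 738 CPM in controls. Over all settings the log2 fold change ran from -0.81 to 0.037 for Tmsb4x and from -0.72 to -0.11 for Pfn1.

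Set against their own family, contractile isoforms were the minor forms in these libraries, as levels per kb show. Acta2 stood at 2.05 to 3.65% of Actb over the 6 libraries, Tagln at 0.0591 to 0.113% of Tagln2, Cnn1 at 0.889 to 1.72% of Cnn2, and Myl9 at 2.57 to 6.59% of Myl6. Tpm1 reached 32.5 to 43.2% of Tpm3. Some family shares did separate the groups. Actn1 was 28.9, 19.6 and 20.5% of Actn4 in rPTH libraries, against 13.7, 15.6 and 16% in controls. Cnn3 was 44.4, 31.9 and 29.2% of Cnn2 in rPTH libraries, against 22.5, 22.8 and 27.0% in controls. Tpm4 was 210, 135 and 131% of Tpm3 in rPTH libraries, against 109, 93.1 and 108% in controls. Each of these was highest in rPTH 1 and above every control in all 3 rPTH libraries. Myh10 was 13.2, 9.23 and 8.54% of Myh9 in rPTH libraries, against 7.84, 6.66 and 7.62% in controls. Myl9 was 6.59, 3.84 and 3.88% of Myl6 in rPTH libraries, against 2.57, 2.85 and 3.59% in controls, and Actg1 per Actb was likewise higher in each rPTH library. The remaining 9 of 15 family pairs overlapped, Acta2 per Actb among them. A share within a library shows unequal change, not which gene differed, and no test was run on the shares. The pairs were chosen with earlier results known, and the same count was not made over other gene pairs. How many pairs separated is therefore a description only. Counts are per gene, so splice forms of Tpm1 or Cald1 are not separated.

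**Figure D3:**
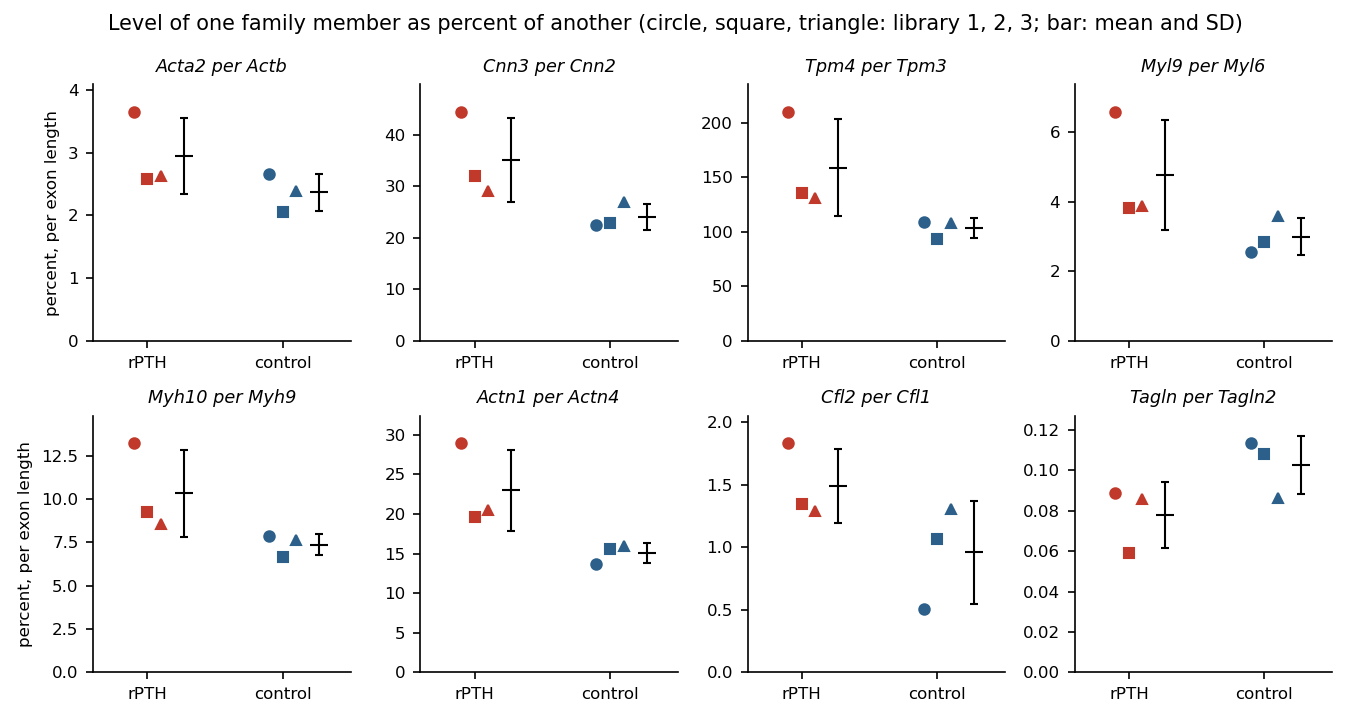
Level per kb of one family member as a percentage of another, for pairs of contractile or stromal and non-muscle isoforms. Circles, squares and triangles are libraries 1, 2 and 3, rPTH at the left and control at the right, with the mean and SD (n = 3) beside them; Actn1 per Actn4 ran from 19.6 to 28.9% in rPTH libraries and from 13.7 to 16% in controls.

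The ratio of contractile isoforms to blood-cell regulators was highest in rPTH 1, and their sums lay closest to each other there. The 9 contractile members summed to 834, 616 and 575 CPM in rPTH libraries, against 721, 517 and 516 CPM in controls. The 5 blood-cell regulators summed to 1116, 1339 and 1259 CPM in rPTH libraries, against 1918, 1394 and 1260 CPM in controls. The ratio of the sums, which is free of library scaling, was 0.747, 0.460 and 0.457 in rPTH libraries, against 0.376, 0.371 and 0.409 in controls. All 3 rPTH libraries lay above all 3 controls, the mean ratio being 0.555 ± 0.167 in rPTH libraries and 0.385 ± 0.0208 in controls (SD, n = 3 each). Such sums rest most on the highest genes. Cald1 averaged 197 CPM in rPTH libraries and 120 CPM in controls, within contractile sums averaging 675 and 585 CPM. Tpm1 averaged 242 CPM in rPTH libraries and 259 CPM in controls. The ratio therefore does not show a change shared by all 9 contractile members. The mean log2 ratio was 0.49 higher in rPTH libraries, 0.25 higher without rPTH 1, and 0.24 higher without rPTH 1 and control 1. Osteoblast and stromal markers, none of them a member, were higher in the same libraries and summed to 3878, 2411 and 2556 CPM in rPTH libraries, against 1921, 1968 and 1907 CPM in controls. Of 29 listed, none was at 0 in all libraries and 22 were tested. Lum, Dcn, Thy1, Bglap, Ibsp, Fap and Cthrc1 were too low to test, with at most 7 counts in any library. Of the 22, 21 had a log2 fold change above 0, beside 41.5% of all genes. In 14 every rPTH library lay above every control, beside 8.35% of all genes. None of the 22 passed the adjusted test with edgeR, DESeq2 or limma-voom. With edgeR 11 had an unadjusted p under 0.05, all of them higher, beside 7.87% of all genes in either direction and 1.98% higher. Their median log2 fold change was 0.56, with Lox at 0.97, Cdh11 at 0.81 and Col1a2 at 0.64. Without rPTH 1 the median was 0.34 and 1 of the 22 had an unadjusted p under 0.05, beside 272 of 16882 genes (44 higher). Without control 1 the median was 0.60 and 14 of the 22 had such a p, beside 2165 of 17454 genes (778 higher). Without both libraries the median was 0.38 and 16 of the 22 had such a p, beside 855 of 17058 genes (541 higher). Without control 1, and without both, all 22 had every rPTH library above every control, beside 2769 of 17454 and 3296 of 17058 genes. Whether RNA of 7F2 cells contributed to the higher ratio was not tested, and in bulk samples fewer cells of a type and less RNA per cell cannot be told apart. Macrophage markers summed to 14.4 to 17.8 CPM in rPTH libraries and 11.7 to 21.8 CPM in controls.

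**Figure D4:**
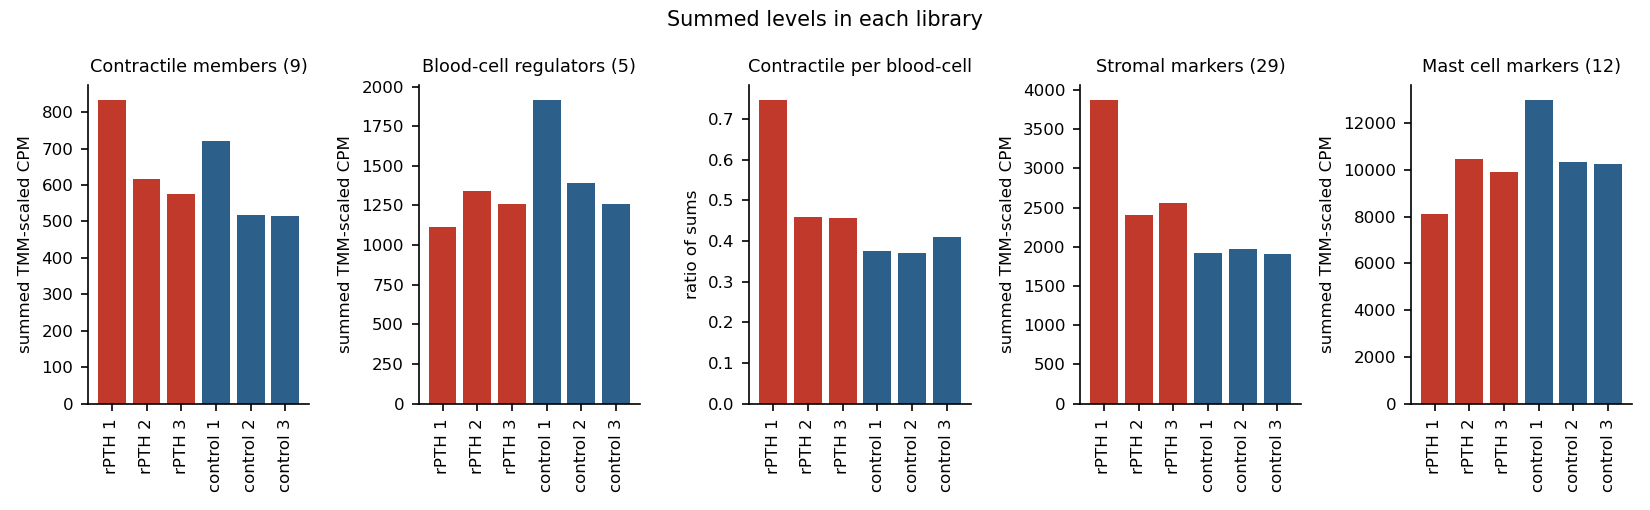
Summed levels per library of the contractile isoforms, the blood-cell regulators, their ratio, the osteoblast and stromal markers and the mast cell markers. Each bar is a library, rPTH at the left (red) and control at the right (blue). The ratio was 0.747 in rPTH 1 and 0.376 in control 1, and the stromal marker sum was 3878 CPM in rPTH 1 and at most 1968 CPM in the controls.

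Members with short transcripts were highest in control 1 more often than members with long ones, and the cause was not tested. Of the 19 members with under 3000 exon bases, 17 had their highest level in control 1 and 16 had a log2 fold change below 0, with a median of -0.27. Of the 19 longer members, 7 were highest and 8 lowest in control 1, and the median was 0.09. After the length and GC trend of each library was removed, the medians were -0.06 for the shorter and 0.04 for the longer members. Over protein-coding genes, the median deviation of control 1 from the mean of all libraries went from 1.05 on the log2 scale in genes under 1 kb down to -0.35 in genes of 5 kb or more. By role, after removal, the median was 0.28 for contractile isoforms, -0.30 for blood-cell regulators and -0.08 for general members, and in 4 members every rPTH library lay above every control, beside 6.98% of all genes. These were Actn1, Myh10 and Flna, which had been separate before removal, and Ezr, which had not, while Cald1, Cfl2, Msn and Myl12b then overlapped. Actn1 was the 1 member with an unadjusted p under 0.05 in that fit, beside 5.23% of all genes.

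**Figure D5:**
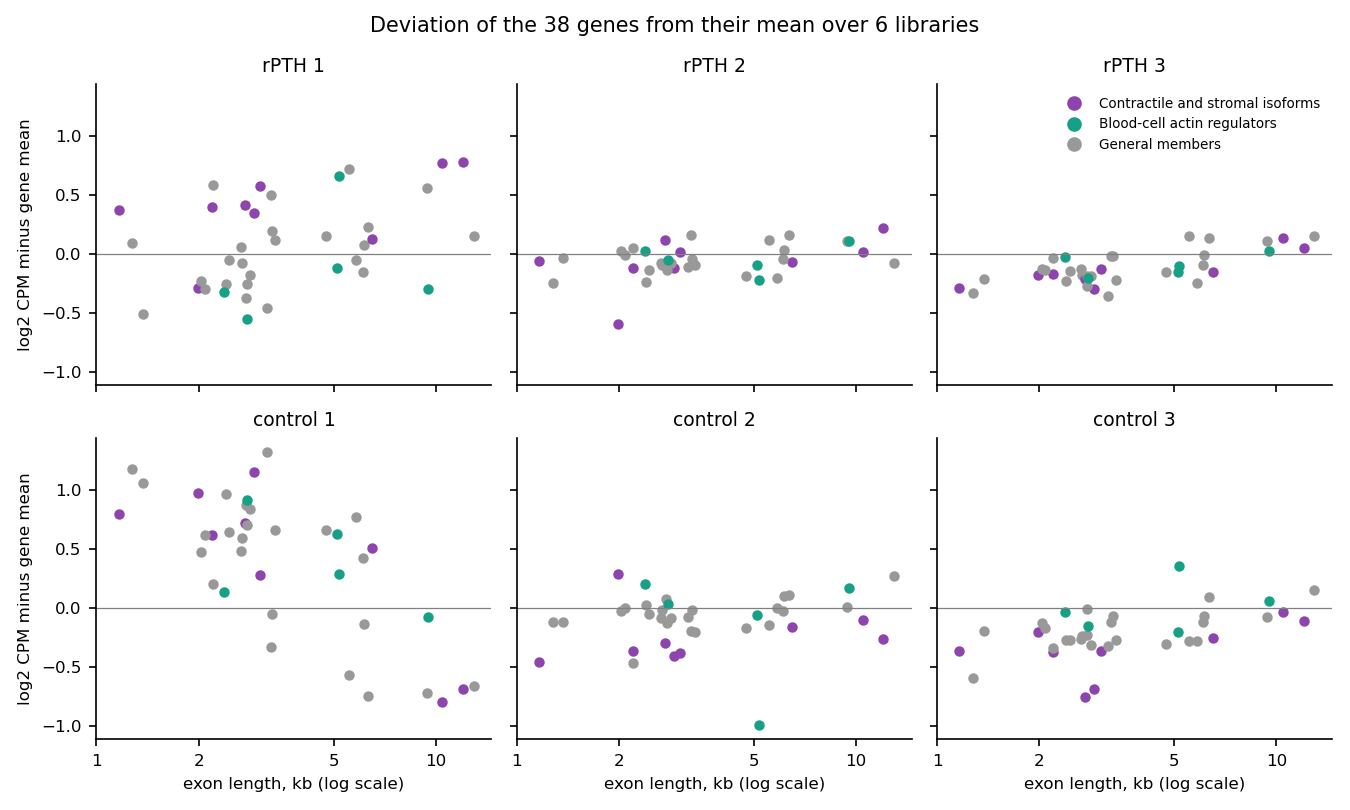
Deviation of each of the 38 genes from its mean over the 6 libraries (log2) against exon length in kb (log axis), 1 panel a library, rPTH above and control below. In control 1 the short genes lie above 0 and the long genes on both sides of it; 17 of the 19 genes under 3000 bases and 7 of the 19 longer ones were highest there.

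Other genes of the same machinery, listed by function, gave no call either. Over all genes, 41.5% had a log2 fold change above 0, 8.35% had every rPTH library above every control and 8.46% every one below. Of other smooth muscle and stress-fibre genes, 18 of 24 were tested and 10 were above 0, with a median log2 fold change of 0.05. Flnc, the muscle filamin, averaged 55.1 ± 16.9 CPM in rPTH libraries and 36.1 ± 6.65 CPM in controls (SD, n = 3 each). Lpp, a focal adhesion protein, averaged 135 ± 24.7 CPM in rPTH libraries and 87.3 ± 38 CPM in controls. These were the 2 in the list with every rPTH library above every control. Of serum response factor, its myocardin-related coactivators and early targets, 9 of 10 genes were tested and 6 were above 0 (median 0.18). Mkl1, the coactivator that actin monomers hold in the cytoplasm, averaged 53.0 ± 6.68 CPM in rPTH libraries and 43.4 ± 3.12 CPM in controls, with no overlap. Junb, an early response gene, averaged 93.0 ± 12.1 CPM in rPTH libraries and 126 ± 20.9 CPM in controls. Of 25 other blood-cell actin regulators, 17 were below 0 (median -0.20), and in 2 every rPTH library lay below every control, a share near that of all genes. Without control 1, 1 of the 25 was above 0, beside 43.4% of all genes, whereas 12 of the 25 were above 0 without rPTH 1, without control 2 or without control 3. Of 42 genes of the core turnover machinery, 26 were above 0, 9 had every rPTH library above every control, and the median was 0.11. Among them were Wasl, the broadly expressed relative of Was, at 33.9 ± 5.53 CPM in rPTH libraries and 25.4 ± 4.16 CPM in controls, and Nckap1, a subunit of the WAVE complex, at 190 ± 36.1 CPM in rPTH libraries and 139 ± 33.4 CPM in controls. After removal of the length and GC trend, 18 of the 42 were above 0, beside 41.6% of all genes, and the median was -0.06.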

How the data were processed

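RNA was measured in 3 rPTH and 3 control libraries. The count of each gene, a whole number with no normalization, was read from the table the authors deposited. The authors' deposited comparison table gave their log2 fold change and p-value. Per the submitters' processing notes, named without roles, DESeq2 1.12.4, R 3.3.0, STAR 2.5.2b, featureCounts, Subread 1.5.0p3 and Trimmomatic 0.36 were used. Those notes name GRCm38.p5 and mm9, and the annotation and strand setting of the counting are not given in the sources used here. Genes were tested with edgeR 4.0.16 (robust quasi-likelihood, TMM factors, filterByExpr minimum count 10) in R 4.3.3, after a check on simulated data. The adjusted p threshold was 0.05. Exon lengths and overlaps came from GENCODE M21 (GRCm38), where Myl12b names 2 genes and the lowest identifier was used. Near-identical copies were at least 95% identical over at least 300 bases (blastn 2.17.0). The length and GC trend was a loess fit (span 0.4) per library. Alternatives were DESeq2 1.42.0, limma-voom (limma 3.58.1), other scalings and filters, each library left out, a replicate block and trend removal.

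The members, lists and family pairs were chosen with earlier results of these data known. All contractile members and blood-cell regulators were named, then general members of their families and those with an unadjusted p under 0.05 or separate groups. Also named were the 3 highest per kb, Tmsb4x and Pfn1 for their low fold changes, and up to 4 genes of smallest p in each related list. The protocol names no molecular identifiers, so reads may repeat molecules, and intervals cover only the error between libraries.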

Additional observations from a re-analysis of the deposited data

How the results depend on the processing

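The call of no member at an adjusted p under 0.05 held in every setting run. Over all genes, DESeq2 called 5 and every other setting 0. At an unadjusted p under 0.05, edgeR gave 1314 of all 16696 genes, 1187 with library totals and 873 with the trend removed. It gave 2377 of 38206 genes without the count filter, and 855 of 17058 without rPTH 1 and control 1. The count was 272 of 16882 without rPTH 1, 2165 of 17454 without control 1 and 1638 of 17250 without control 3. Members with an unadjusted p under 0.05 numbered 2, against 4 with library totals, 6 without the count filter, 1 with the trend removed, 0 with the replicate block, 6 without rPTH 1 and control 1 (an alternative added after the data were seen), and 0 to 7 with 1 library left out (0 without rPTH 1, 6 without control 1, 7 without control 3). Members whose groups did not overlap numbered 7, against 4 with the trend removed, with or without the replicate block, 15 without rPTH 1 and control 1, and 7 to 18 with 1 library left out (11 without rPTH 2, 15 without control 1, 18 without control 3). With fewer libraries more genes separate by construction. Over all genes, 1394 were higher and 1412 lower without overlap of 16696 in the main fit. With the trend removed these were 1166 and 1051, and without rPTH 2 they were 2135 and 2587 of 16957. Without control 1 they were 2769 and 2708 of 17454, and without control 3 they were 3033 and 2888 of 17250. Without rPTH 1 and control 1 they were 3296 and 3285 of 17058. The blood-cell median was -0.048 without rPTH 1 and control 1. Same-numbered libraries correlated at -0.131, -0.323 and 0.142 in their deviations, so the numbers were not taken as pairs, and the replicate block gave 525 genes with an unadjusted p under 0.05. Of 644 alternative log2 fold changes of members, 588 kept their sign, and 56 took the other sign, as follows; the cause was not tested. With library totals they were Actg1 0.038, Tpm1 0.066, Myl9 0.11 and Lcp1 0.019, and without the count filter Actg1 0.028, Tpm1 0.055, Myl9 0.0955 and Lcp1 0.024. Myl9 was also 0.0092 with DESeq2, 0.039 with limma-voom and 0.016 with the replicate block. With the trend removed they were Actg1 0.053, Myl9 0.40, Myh9 -0.034 and Tmsb10 0.0032, and with the block added Actg1 0.061, Tpm2 0.11, Myl9 0.40, Myh9 -0.029 and Tmsb10 0.062. Without rPTH 1 and control 1 they were Actg1 0.0745, Actn4 -0.0039, Tagln2 0.012, Cnn2 0.0145, Tpm1 0.098, Tpm2 0.33, Tpm3 0.0026, Myl9 0.24, Myl12a 0.086, Myh9 -0.17, Vim 0.068, Cfl1 0.062, Arpc1b 0.0061, Arpc2 0.028, Tmsb4x 0.037 and Tmsb10 0.0485. With 1 library left out, the lowest and highest values were -0.18 and 0.42 for Acta2, -0.21 and 0.12 for Actg1, -0.054 and 0.62 for Cnn1, -0.37 and 0.037 for Cnn2, -0.21 and 0.17 for Tpm1, -0.51 and 0.53 for Tpm2, -0.30 and 0.43 for Myl9, -0.33 and 0.17 for Myl12a, -0.14 and 0.28 for Myh9, -0.32 and 0.18 for Vim, -0.53 and 0.0385 for Cfl1, -0.18 and 0.017 for Lcp1, -0.16 and 0.52 for Lsp1, and -0.70 and 0.18 for Tmsb10. Over all settings 18 of 38 members kept 1 sign, among them Actn1 (0.34 to 0.78), Cald1 (0.32 to 0.92), Myh10 (0.15 to 0.82) and Flna (0.14 to 0.65), and, below 0, Coro1a (-0.73 to -0.07). Tagln and Lsp1 have no value under the filter of at least 1 CPM in 3 libraries. Depth limits Lsp1, Tagln and Cnn1, whose counts are few in every library.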

Other observations

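The muscle genes Acta1 and Myh11, which are outside the 38, were high in 1 control. Acta1, the skeletal muscle actin gene, had 179, 185 and 162 counts in rPTH libraries 1, 2 and 3, against 105, 161 and 416 counts in control libraries 1, 2 and 3. Myh11, the smooth muscle myosin heavy chain gene, had 24, 23 and 29 counts in rPTH libraries, against 1, 20 and 72 counts in controls. Scaled to library size, Acta1 stood at 5.68, 5.36 and 4.54 CPM in rPTH libraries, against 5.32, 6.23 and 18 CPM in controls. In both genes control 3 was the highest library, whereas the smooth muscle isoforms Acta2 and Tpm2 were highest in control 1. Actg2, the γ-smooth muscle actin gene, had no such peak in control 3, with 8.92, 4.96 and 4.71 CPM in rPTH libraries, against 8.66, 3.95 and 6.44 CPM in controls.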
